A study of Mus musculus with 47 samples.

Results

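Genes of the yolk sac and visceral endoderm were followed in embryoid bodies (EBs) and embryonic stem cells (ESCs) that had received a small interfering RNA against Tdg. The set is a list of 33 symbols, all of them among the 24507 genes in the table of day 11 EBs. The cells are E14Tg2A, a mouse ESC line, grown without serum with leukemia inhibitory factor and the inhibitors PD0325901 and CHIR99021. EBs are aggregates in which ESCs differentiate, and here they were made from cells transfected with a control (siC) or with siTdg, which knocks down the gene of thymine DNA glycosylase, an enzyme of base excision repair. The groups compared were siC and siTdg in day 11 EBs, in ESCs at 48 h and in ESCs at 96 h, with 2 libraries in each of the 6 groups. A further 8 libraries of ESCs sorted by cell-cycle phase, G1 or G2M with siC or siTdg, were used for levels only. The model is 1 cell line in culture, and whole EBs were sequenced, not isolated yolk sac tissue. Whether both libraries of a group were grown as separate cultures is not stated, and p-values therefore cover only how these libraries spread, which can be technical. In bulk RNA, fewer cells of a type and less RNA per cell cannot be told apart.

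The visceral endoderm is the epithelium that covers the early mouse embryo and later lines the yolk sac. Before the liver forms it secretes serum proteins and lipoproteins, and it takes up maternal proteins through large endocytic receptors at its apical face. It arises from the primitive endoderm, which is specified by GATA and SOX factors and also gives rise to the parietal endoderm, a cell type that lays down a thick basement membrane. Sparc and Lama1 are products of the parietal branch, and Pdgfra marks primitive endoderm, though cells of the mesoderm make these RNAs too.

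Tdg itself was at 35.1 and 38.5 RPKM (reads normalised to gene length and library size) in siC EBs of day 11, and at 37.3 and 43.7 RPKM in the EB libraries labelled siTdg, with replicate 1 before replicate 2 here and in all pairs of values that follow. It was therefore not lower in those libraries at day 11, and every EB difference below is one between libraries labelled siTdg and siC. In ESCs Tdg ranged from 43.4 to 46.0 RPKM in siC and from 7.34 to 13.2 RPKM in siTdg at 48 h. At 96 h it ranged from 35.8 to 46.0 RPKM in siC and from 28.2 to 40.3 RPKM in siTdg. The number of reads on genes, worked back from RPKM, lay between 20818174 and 41433232, and both EB libraries of replicate 2 had fewer reads (21775039 and 20818174) than those of replicate 1 (38825128 and 41433232).

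The set was detected more widely in EBs than in ESCs. In EBs 21 of the 33 genes were at 1 RPKM or more in all 4 libraries, and 13 had a mean of at least 10 RPKM. In ESCs 24 of the 33 were below 1 RPKM in all 8 libraries of 48 h and 96 h, and 24 were below 1 RPKM in all 8 sorted libraries as well. At 1 RPKM or more in all 4 EB libraries and below 1 RPKM in those 8 ESC libraries were 12 genes, namely Afp, Ttr, Rbp4, Fgb, Apoa1, Apoa2, Apoa4, Mttp, Amn, Gata6, Foxa1 and Pdgfra. Only Trf, Apom, Apoe, Cldn6, Cited1, Lama1 and Sparc, 7 genes, were at 1 RPKM or more in all 8 libraries of 48 h and 96 h. These counts were not set beside the share of all genes under the same bounds, so they describe the members only. The tables were scaled separately by the authors, so levels in EBs and ESCs are set side by side without a test. On the scale log2(mean RPKM + 0.5), 15 of the 33 genes were at least 4-fold higher in siC EBs than in siC ESCs at both times, where 10.5% of the 14317 genes above a filter on low values were. Of the members, 16 passed that filter in EBs only and 4 not at all, so these shares are a description and cannot be weighed against each other. The 15 are Afp, Ttr, Rbp4, Fgb, Apoa1, Apoa2, Apoa4, Apob, Mttp, Dab2, Cldn6, Gata6, Foxa1, Pdgfra and Sparc. Apoe was at least 4-fold lower, as were 7% of all genes.

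**Figure D1:**
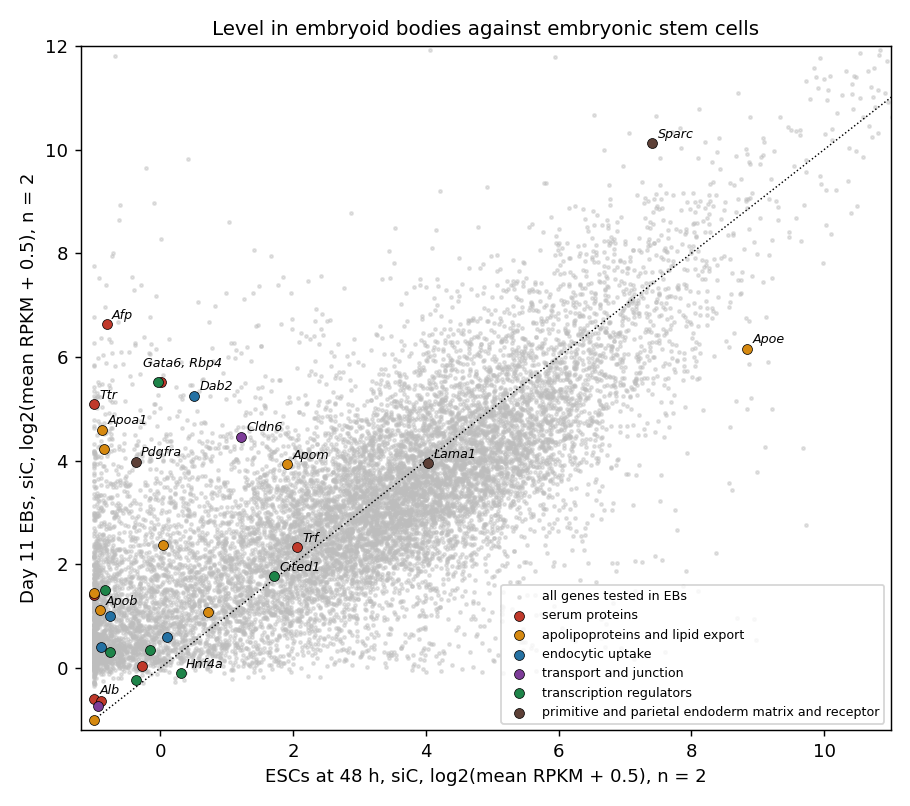
Level of each gene in siC EBs of day 11 (vertical axis) against siC ESCs at 48 h (horizontal axis), both as log2(mean RPKM + 0.5) of 2 libraries. Coloured points are the 33 genes by role and grey points are the 13300 genes tested in EBs, of which 36 lie outside the axes; the dotted line marks equal values, and Apoe lies below it at 71.0 RPKM in EBs against 459 RPKM in ESCs while Afp, Ttr and Apoa1 stand at the left edge.

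The serum protein genes had a higher summed level in EBs than in ESCs, carried by Afp, Ttr and Rbp4. Their sum in the 4 EB libraries was 99.3 and 271 RPKM for siC, and 203 and 465 RPKM for siTdg. In the 8 ESC libraries the same sum ranged from 1.84 to 7.51 RPKM, with Trf, the iron carrier transferrin, as its largest part at 1.52 to 6.30 RPKM. Trf in siC EBs, at 6.82 and 2.25 RPKM, overlapped that range. Afp encodes alpha-fetoprotein, the main fetal serum protein, and did not exceed 0.135 RPKM in any of these ESC libraries. Ttr, the thyroid hormone and retinol carrier transthyretin, and Fgb, a chain of fibrinogen, were listed at 0 in all 8. Alb, the adult serum protein albumin, stayed low in EBs as well, at 0.183 and 0.130 RPKM in siC and 0.168 and 1.5 RPKM in siTdg, on 5 to 56 reads per library.

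Afp and Alb are neighbours on mouse chromosome 5, and the 3 fibrinogen genes lie together on chromosome 3. Promoters of Afp, Alb, Fga and Fgb are shown because they belong to the serum protein group and hold the same short motif, and that of Rbp4 because it is the other high serum protein gene with a match; a further RefSeq start of Rbp4, not shown, has no match to any motif searched. Each sequence runs from 250 bases before to 50 bases after a RefSeq start (GRCm38.p6, 5′ to 3′ on the gene's strand), and capitals mark the match. The positions are chr5:90490464-90490763 (plus strand) for Afp, chr5:90460620-90460919 (plus strand) for Alb, chr3:83025903-83026202 (plus strand) for Fga, chr3:83049814-83050113 (minus strand) for Fgb and chr19:38125272-38125571 (minus strand) for Rbp4.
Afp: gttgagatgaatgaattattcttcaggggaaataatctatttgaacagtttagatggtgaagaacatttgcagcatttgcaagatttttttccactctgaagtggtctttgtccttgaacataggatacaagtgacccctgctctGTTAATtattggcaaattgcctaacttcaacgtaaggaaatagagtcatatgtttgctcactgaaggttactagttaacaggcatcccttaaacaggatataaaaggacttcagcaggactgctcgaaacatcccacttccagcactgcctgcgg
Alb: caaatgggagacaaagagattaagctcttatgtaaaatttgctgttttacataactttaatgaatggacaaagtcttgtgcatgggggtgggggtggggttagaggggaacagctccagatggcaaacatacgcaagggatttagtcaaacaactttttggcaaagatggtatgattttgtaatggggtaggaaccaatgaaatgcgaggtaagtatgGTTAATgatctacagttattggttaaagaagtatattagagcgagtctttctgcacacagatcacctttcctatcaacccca
Fga: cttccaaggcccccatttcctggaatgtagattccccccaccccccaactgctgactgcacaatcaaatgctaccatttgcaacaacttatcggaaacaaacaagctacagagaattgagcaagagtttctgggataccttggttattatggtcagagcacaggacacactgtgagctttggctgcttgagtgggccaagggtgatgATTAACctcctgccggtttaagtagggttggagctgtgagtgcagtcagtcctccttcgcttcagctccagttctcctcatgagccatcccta
Fgb: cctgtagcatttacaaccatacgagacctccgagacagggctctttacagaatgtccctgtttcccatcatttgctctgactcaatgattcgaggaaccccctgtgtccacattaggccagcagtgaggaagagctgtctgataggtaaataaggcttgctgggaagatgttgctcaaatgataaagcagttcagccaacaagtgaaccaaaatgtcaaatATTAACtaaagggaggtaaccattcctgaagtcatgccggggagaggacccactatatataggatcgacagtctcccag
Rbp4: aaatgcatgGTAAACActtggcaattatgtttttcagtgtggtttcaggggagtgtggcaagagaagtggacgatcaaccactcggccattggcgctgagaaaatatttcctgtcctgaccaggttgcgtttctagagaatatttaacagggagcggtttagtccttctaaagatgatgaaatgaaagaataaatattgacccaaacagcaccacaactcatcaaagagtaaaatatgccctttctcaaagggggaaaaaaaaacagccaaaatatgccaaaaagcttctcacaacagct

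The letters searched on both strands were GTTAAT for HNF1, TGTTTAC for FOXA, AGATAA for GATA and CAAAGTCCA for HNF4, factors of visceral endoderm and liver, and in the promoters shown no match overlaps another. HNF1 letters lie 105 to 100 bases before the start in Afp, 32 to 27 in Alb, 43 to 38 in Fga and 29 to 24 in Fgb, on the opposite strand in Fga and Fgb. FOXA letters lie 241 to 235 bases before the Rbp4 start shown, on the opposite strand. Of the 33 genes 26 matched the RefSeq promoter table, with 34 promoters. HNF1 letters were in 9 of the 34 promoters (26.5%), those of Afp, Alb, Apoc2, Apoe, Dab2, Fga, Fgb, Hnf4a and Sparc, against 7.1% of all 32851 promoters. FOXA letters were in 4 of the 34 (11.8%) against 3.65% of all, GATA letters in 2 of the 34 (5.88%) against 11.2%, and HNF4 letters in 0 of the 34 against 0.475%. A match describes the letters only, and binding was not measured at them here.

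**Figure D2:**
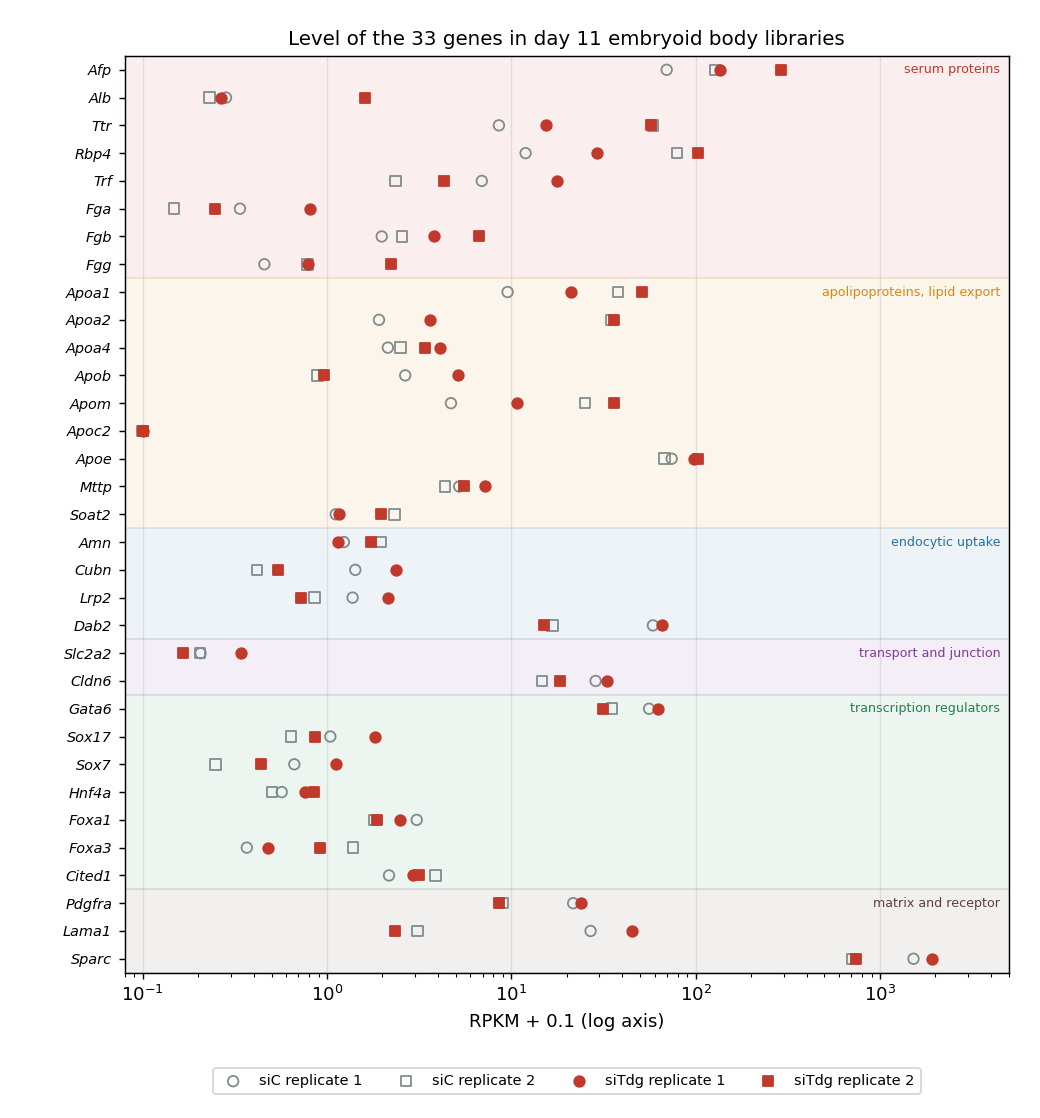
RPKM + 0.1 on a log axis for each of the 33 genes in the 4 day 11 EB libraries; open symbols are siC, filled symbols siTdg, circles replicate 1 and squares replicate 2, with 1 point per library. Levels run from 0 for Apoc2 to 1921 RPKM for Sparc, and for genes such as Ttr, Apoa2, Dab2 and Lama1 circles and squares lie further apart than open and filled symbols do.

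Between siTdg and siC EBs limma called 0 of the 13300 genes tested (0% at an adjusted p under 0.05), and 0 of the 29 members tested. Without adjustment 20 genes had a p under 0.05 in limma, and limma-voom on recovered reads called 0 genes and gave 7 without adjustment. Every member had an adjusted p of 1.00 in the limma fit, which held no term for replicate number. The absence of calls depended on that choice. With replicate number as a block limma did call genes in EBs, members among them, as given in the last section. The members that did not pass the filter, a mean of at least 0.5 RPKM, were Alb, Fga, Slc2a2 and Apoc2. A single-gene exact permutation test of 2 libraries against 2 cannot give a two-sided p below 0.333. The signs of the differences are given below as a description. In the fit 23 members had a log2 change above 0 and 6 below, with a median of 0.40, while 7235 of all 13300 genes were above 0 with a median of 0.02. Within replicate number 1 the members' median log2 ratio of siTdg over siC was 0.52 against 0.06 for all genes, and within number 2 it was 0.20 against -0.02.

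Among the 29 members tested, 18 had a ratio above 0 within both replicate numbers, compared with 32.6% of all genes tested. Amn, which encodes the amnionless subunit of the cubilin receptor, was the only member below 0 within both, compared with 21.8% of all genes. At a log2 ratio of at least 0.5 within both numbers there were 4 members, Afp, Trf, Fgb and Apom, while 0.398% of all genes (53) met that bound. At -0.5 or less there were 0 members, against 0.519% of all genes. Both siTdg libraries lay above both siC libraries for 6 members, Afp, Fgb, Apoa4, Apoe, Mttp and Hnf4a, and for 5.17% of all genes tested. No member had both siTdg libraries below both siC libraries, against 4.13% of all genes. Hnf4a and Sox7 are among the 18, and Hnf4a among the 6, but both genes reached the filter of 0.5 RPKM only through siTdg. Their siC means were 0.435 and 0.356 RPKM and their siTdg means 0.705 and 0.681 RPKM, so the filter favoured their signs. The set was also chosen with earlier results of these data known, so these counts and shares are a description.

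The serum proteins had the highest median difference among the roles. All 6 that were tested had a log2 change above 0 in limma, with a median of 0.93, and 5 of the 6 were above 0 within both numbers. Afp was at 69.6 and 128 RPKM in the siC EBs and at 136 and 289.6 RPKM in the siTdg EBs. The groups did not overlap, but the lower siTdg library stood only just above the higher siC library. The log2 change of Afp was 1.07 (SE 0.73), and within numbers 1 and 2 the ratios were 0.96 and 1.18. SE here and below is the standard error from limma. It draws on the spread of other genes of similar level and, without a replicate term, includes the gap between replicate numbers. In the authors' deposited table, made with DESeq2 per the submitters' processing notes, Afp has a log2 change of 1.07 with an adjusted p of 9.97e-08.

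Trf was at 6.82 and 2.25 RPKM in siC and at 17.5 and 4.19 RPKM in siTdg. It was higher in siTdg within each number, with log2 ratios of 1.30 and 0.77, yet the groups overlapped because replicate 1 was above replicate 2 in both. In limma its log2 change was 1.03 (SE 0.88), and in the authors' deposited table it is 1.16 with an adjusted p of 0.00342. Afp and Trf are the 2 members called higher among the 30 with an adjusted p in the authors' deposited table, where 8 of 13424 genes (0.0596%) are called higher. Which terms the authors' model held is not known here.

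Rbp4, the plasma carrier of retinol, was at 11.9 and 79.0 RPKM in siC and at 29.0 and 103 RPKM in siTdg. Its ratios were 1.26 and 0.38, and the difference between replicate numbers was wider than that between siRNAs. Its log2 change was 0.82 (SE 1.18) in limma and 0.83 with an adjusted p of 0.0996 in the authors' deposited table. Ttr was at 8.47 and 58.5 RPKM in siC and 15.4 and 57.2 RPKM in siTdg, with ratios of 0.83 within number 1 and -0.03 within number 2. In number 2, therefore, the libraries of Ttr were level.

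The fibrinogen chains, which form the clotting protein of plasma, were low and had ratios above 0 of differing size. Fgb was at 1.88 and 2.45 RPKM in siC and at 3.72 and 6.61 RPKM in siTdg, with a log2 change of 1.05 (SE 0.42) and an unadjusted p of 0.0631 in limma, the smallest of the members. Fgg was at 0.357 and 0.685 RPKM in siC and 0.685 and 2.12 RPKM in siTdg, on 27 to 81 reads. Fga, on 3 to 110 reads, was at 0.237 and 0.0478 RPKM in siC and 0.706 and 0.148 RPKM in siTdg. The ratios within numbers 1 and 2 were 0.83 and 1.27 for Fgb, 0.47 and 1.14 for Fgg, and 0.71 and 0.24 for Fga. Values per library of genes with a mean under 10 RPKM, other than Trf, Foxa1 and Cited1, are given because of what they showed.

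**Figure D3:**
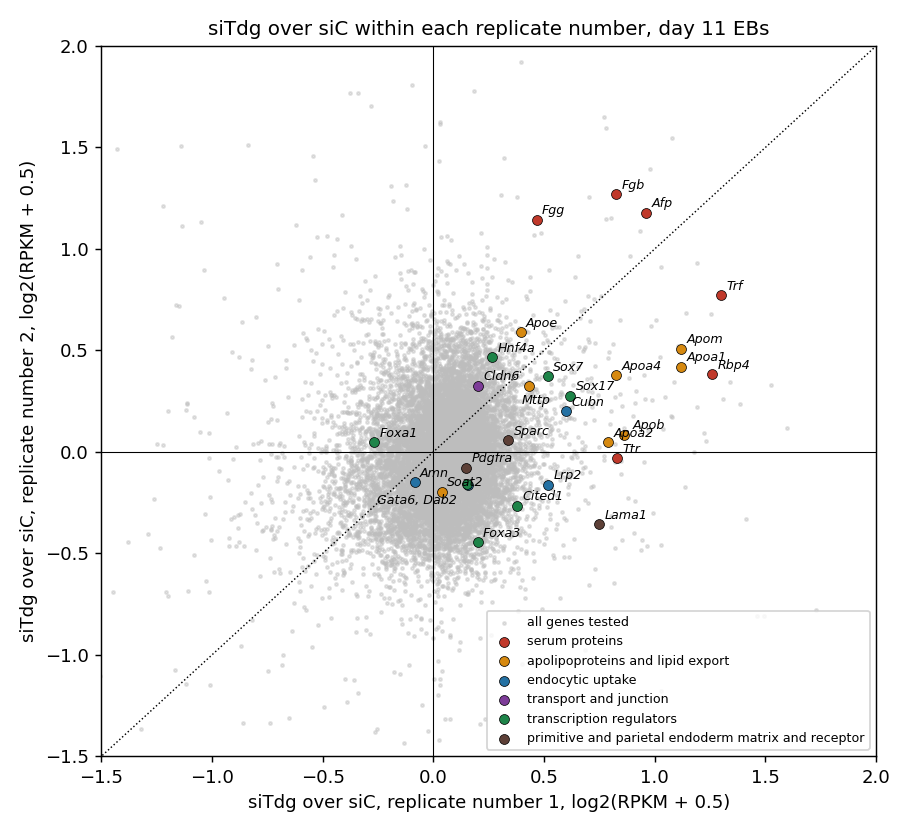
Log2 ratio of siTdg over siC, on RPKM + 0.5, within replicate number 1 (horizontal axis) and number 2 (vertical axis) in day 11 EBs. Coloured points are the 29 members tested, grey points all 13300 genes (53 lie outside the axes), and the dotted line marks equal ratios; 18 members lie at the upper right, with Afp, Trf and Fgb farthest out, while Gata6, Dab2 and Pdgfra lie near the centre.

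Among apolipoproteins and genes of lipid export 7 of the 8 tested were above 0 within both numbers, and their median log2 change was 0.48. Apoe, a carrier of lipids that many cell types make, was at 74.1 and 67.9 RPKM in siC EBs and at 97.5 and 102 RPKM in siTdg EBs. The groups did not overlap and the replicates were close to each other. The log2 change was 0.49 (SE 0.49), where the SE reflects the spread of other genes more than that of Apoe itself. Apoa1, the main protein of high-density lipoprotein, was at 9.44 and 37.8 RPKM in siC and 21.1 and 50.8 RPKM in siTdg. Its ratios were 1.12 and 0.42 and its log2 change 0.77 (SE 0.88). Apom, a carrier of sphingosine phosphate, was at 4.60 and 25.0 RPKM in siC and 10.6 and 35.8 RPKM in siTdg. For Apoa1 and Apom both libraries of replicate 2 were above both of replicate 1, so siC and siTdg overlapped. Apom had ratios of 1.12 and 0.51 and a log2 change of 0.81 (SE 1.04).

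Apoa2, another protein of high-density lipoprotein, was at 1.81 and 34.7 RPKM in siC and 3.50 and 35.9 RPKM in siTdg. Its ratio was 0.79 within number 1 and 0.05 within number 2, small beside the gap between replicates. Apoa4, whose gene neighbours Apoa1 on chromosome 9, was at 2.04 and 2.41 RPKM in siC and 4.00 and 3.28 RPKM in siTdg. Apob, the core protein of the large lipoproteins, was at 2.56 and 0.786 RPKM in siC and 5.05 and 0.862 RPKM in siTdg. Mttp, which loads lipid onto Apob, was at 5.12 and 4.26 RPKM in siC and 7.08 and 5.46 RPKM in siTdg. These last 3 genes were higher in siTdg within each number, with the groups apart for Apoa4 and Mttp. Soat2, which esterifies cholesterol for export, was between 1.02 and 2.22 RPKM with a log2 change of -0.08 (SE 0.47). Apoc2 was listed at 0 in all EB and ESC libraries, where up to 3 reads per library are allowed by a count of 0. In the mouse annotation its locus is shared with a readthrough transcript of Apoc4 and Apoc2, so how the authors' counting treated it is uncertain.

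Of the 4 endocytic genes 2 had a log2 change above 0 and 2 below. Dab2, the adaptor that links these receptors to clathrin, was at 58.5 and 16.7 RPKM in siC and 65.3 and 14.9 RPKM in siTdg. Its log2 change was -0.00 (SE 1.02), and both libraries of replicate 1 were above both of replicate 2. Lrp2 and Cubn, the giant receptors megalin and cubilin, were between 0.317 and 2.26 RPKM in EBs. Cubn had ratios of 0.60 and 0.20, and Lrp2 of 0.52 and -0.16. Amn was between 1.04 and 1.86 RPKM, with ratios of -0.09 and -0.15. The median log2 change of these 4 genes was 0.09. Of the transport and junction genes, Cldn6, a tight junction protein of embryonic epithelia, was at 28.6 and 14.5 RPKM in siC and 32.9 and 18.3 RPKM in siTdg. Its log2 change was 0.26 (SE 0.57), with overlap between the groups. Slc2a2, the glucose transporter of liver and yolk sac, did not exceed 0.243 RPKM, on 3 to 29 reads.

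Transcription regulators of the endoderm had a median log2 change near that of all genes. Gata6, which drives primitive endoderm, was at 55.8 and 35.0 RPKM in siC and 62.1 and 31.4 RPKM in siTdg. Its log2 change was -0.00 (SE 0.58), with 0.15 within number 1 and -0.16 within number 2. Foxa1, a forkhead factor of endoderm, was at 2.97 and 1.70 RPKM in siC and 2.38 and 1.77 RPKM in siTdg, with a log2 change of -0.11 (SE 0.40). Cited1, a transcriptional coactivator found in yolk sac and placenta, was at 2.07 and 3.77 RPKM in siC and 2.84 and 3.06 RPKM in siTdg. The groups of Gata6, Foxa1 and Cited1 overlapped. Sox17 and Sox7, related SOX factors of primitive endoderm, were between 0.148 and 1.71 RPKM and were above 0 within both numbers. Hnf4a, a nuclear receptor that controls many serum protein and apolipoprotein genes, was at 0.468 and 0.402 RPKM in siC and 0.662 and 0.747 RPKM in siTdg, on 35 to 143 reads. The siTdg libraries of Hnf4a stood above those of siC, with ratios of 0.26 and 0.47, at a level where few reads were counted. Foxa3 was between 0.267 and 1.29 RPKM and its ratios, 0.20 and -0.44, had opposite signs. Of the 7 regulators 3, Sox17, Sox7 and Hnf4a, were above 0 within both numbers. Their log2 changes were 0.45 (SE 0.45), 0.44 (SE 0.49) and 0.37 (SE 0.32), and Sox7 and Hnf4a passed the filter only through siTdg. The median log2 change of all 7 was 0.06, with median ratios of 0.26 within number 1 and 0.05 within number 2.

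The matrix and receptor genes include Sparc, the most abundant gene of the set, and Lama1, which with Apoa2 differed most between replicates. Sparc, a collagen-binding matrix protein, was at 1520.3 and 711 RPKM in siC and 1921 and 739.8 RPKM in siTdg. Its ratios were 0.34 and 0.06, and its log2 change was 0.20 (SE 1.21). Lama1, a laminin chain of embryonic basement membranes, was at 26.8 and 3.00 RPKM in siC and 45.3 and 2.24 RPKM in siTdg, with ratios of 0.75 within number 1 and -0.36 within number 2. Pdgfra, a receptor for platelet-derived growth factor, was at 21.6 and 8.93 RPKM in siC and 23.9 and 8.44 RPKM in siTdg. All 3 genes were higher in both libraries of replicate 1 than in either of replicate 2, and Lama1 and Pdgfra changed sign between numbers. The fitted log2 change of Pdgfra, 0.03, became -0.035 with limma-voom.

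When 1 of the 4 EB libraries was left out, 13 of the 16 genes followed one by one changed sign under at least 1 omission, since the remaining groups then differ in replicate number. Afp (0.52 to 1.61), Trf (0.07 to 2.00) and Apoe (0.43 to 0.55) were the 3 that did not. The median of the members stayed between 0.11 and 0.52.

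Replicates 1 and 2 of the EBs lay far apart. With siRNA as a further term, limma called 37.6% of the 13300 genes higher in replicate 2 and 36.4% lower, and 12 and 13 of the 29 members. Apoa2 (3.56 on the log2 scale), Ttr (2.29), Rbp4 (2.25), Apom (2.02) and Apoa1 (1.60) were the members highest in replicate 2 relative to replicate 1. Lama1 (-3.52), Dab2 (-1.94), Trf (-1.67), Apob (-1.64) and Cubn (-1.36) were the lowest. Apoa4, Apoe, Mttp and Hnf4a were the only members with no call in this comparison. Secreted proteins stood at both ends of this range.

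Gene length moved with this gap. The 5 members under 1500 bases (Ttr, Rbp4, Apoa1, Apoa2 and Apom) were all higher in replicate 2, by 1.60 to 3.56 on the log2 scale. Of the 19 members from 1500 to 6000 bases 8 were higher in replicate 2. None of the 5 members of 6000 bases or more (Apob, Cubn, Lrp2, Pdgfra and Lama1) was, and their differences ran from -3.52 to -0.84. Across the 29 members the Pearson correlation of log2 length with the log2 ratio of replicate 2 over 1 was -0.74 in siC and -0.77 in siTdg. Across all 13300 genes it was -0.46 and -0.45, where genes share the libraries and are not independent replicates. The median ratio in siC was 1.13 for all genes under 1500 bases and -0.70 for those of 6000 bases or more. The ratio of siTdg over siC moved far less with length, with correlations across all genes of 0.17 within number 1 and 0.07 within number 2, and of -0.23 and -0.29 across the members. The part of length in the members' replicate gap was not tested.

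**Figure D4:**
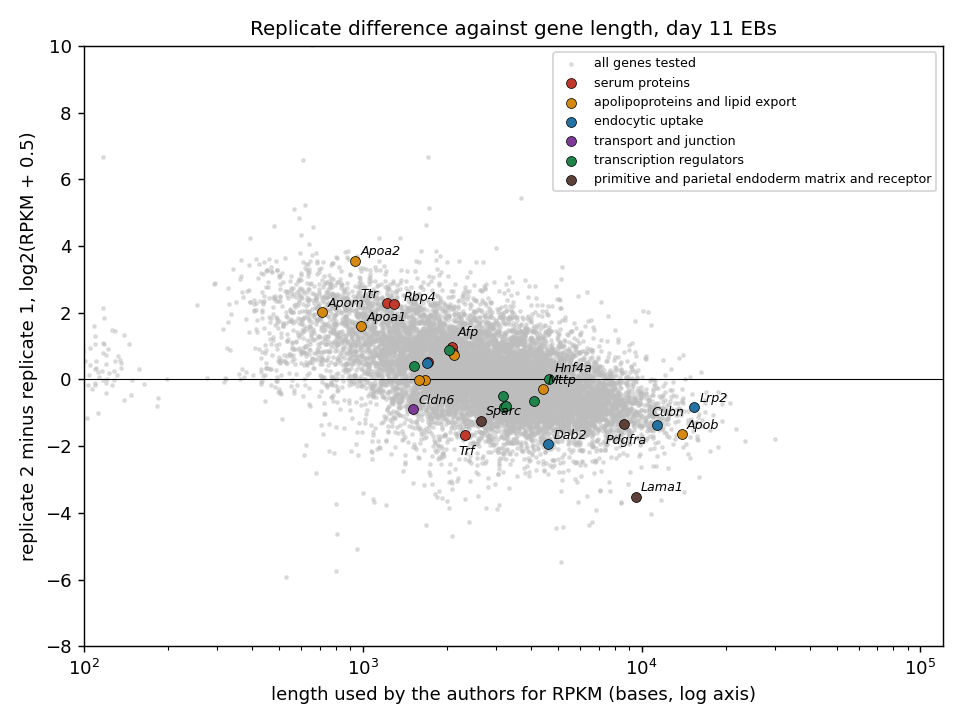
Difference between replicate 2 and replicate 1 in day 11 EBs, from limma on log2(RPKM + 0.5) with siRNA as a term (vertical axis), against the gene length behind the authors' RPKM (horizontal log axis, bases). Coloured points are the 29 members tested and grey points all 13300 genes, of which 164 lie outside the axes; short members such as Apoa2 and Ttr stand above 0 and members of 6000 bases or more stand below it.

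Markers of neighbouring cell types also differed between the EB replicates. For 12 markers of parietal endoderm and basement membrane the summed level was 655 and 116 RPKM in siC, and 858 and 109 RPKM in siTdg. Their median ratio was 0.46 within number 1 and -0.20 within number 2, close in pattern to Lama1. For 10 erythroid markers the sum was 7.46 and 325 RPKM in siC and 13.8 and 740.1 RPKM in siTdg. It rested on embryonic globins, while the adult globins Hba-a1 and Hbb-b1 were listed at 0 in all 4 EB libraries. Of the 5 erythroid markers tested 4 were above 0 within both numbers, compared with 32.6% of all genes. The median log2 change of the 5 was 1.06, beside 0.93 for the serum proteins. The authors' deposited table (DESeq2) calls the embryonic globins Hbb-bh1, Hbb-y and Hba-x higher too. Their adjusted p-values there are 0.000244, 1.86e-05 and 6.81e-05, so calls in that table are not particular to the serum proteins. For 8 cardiac markers the sum was 173 and 483 RPKM in siC and 160.4 and 733 RPKM in siTdg. For 10 liver markers it was 43.7 and 23.6 RPKM in siC and 45.7 and 29.8 RPKM in siTdg, with G6pc and Cyp3a11 listed at 0. The largest part was Ass1, at 36.2 and 12.8 RPKM in siC and 34.1 and 17.4 RPKM in siTdg. Ass1 was higher in ESCs, at 323 to 438 RPKM, so this sum does not mark liver cells. The 8 pluripotency markers summed to 27.3 and 119 RPKM in siC and to 27.3 and 47.9 RPKM in siTdg. In replicate 2 Dppa5a was the largest part of that sum, at 98.4 RPKM in siC and 33.6 RPKM in siTdg. All 7 pluripotency markers that were tested had a log2 change below 0, as did 6065 of all 13300 genes. The 7 changes ran from -0.52 to -0.02, the latter near level. Below 0 within both numbers were 3 of the 7, compared with 21.8% of all genes. The median of the 7 was -0.28 (-0.01 within number 1 and -0.50 within number 2). The remaining lists had median log2 changes of 0.18 over 5 tested genes of definitive endoderm and gut, 0.14 over 8 endothelial, 0.03 over 2 neural and -0.02 for 1 trophoblast gene. The part of these markers in the differences of the serum protein and apolipoprotein genes was not tested.

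Other genes of the visceral endoderm were followed beside the set. Of 32 listed 31 were in the table and 21 were tested. Of these 18 had a log2 change above 0, as did 7235 of all 13300 genes. Above 0 within both numbers were 14, compared with 32.6% of all genes, and 0 of the 21 reached 0.5 within both. The median log2 change of the 21 was 0.22. This list too was chosen with earlier results of these data known, so its counts are a description. Gata4, the partner of Gata6 in primitive endoderm, was at 19.4 and 16.2 RPKM in siC and 20.2 and 15.4 RPKM in siTdg, level between the siRNAs. Spp2 was at 1.88 and 22.6 RPKM in siC and 4.57 and 28.9 RPKM in siTdg, with a log2 change of 0.72. Apoc1, a small apolipoprotein, was at 1.82 and 10.4 RPKM in siC and 4.79 and 12.3 RPKM in siTdg. It was higher in ESCs, at 51.0 to 130 RPKM, so it does not set EBs apart from ESCs as a visceral endoderm marker would. Spink1, a secreted protease inhibitor, was at 19.5 and 351 RPKM in siC and 37.9 and 259 RPKM in siTdg, higher within number 1 and lower within number 2.

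In ESCs 13 of the 33 genes passed the same filter: Rbp4, Trf, Apom, Apoe, Mttp, Soat2, Lrp2, Dab2, Cldn6, Hnf4a, Cited1, Lama1 and Sparc. At 48 h limma called 0 of 12190 genes (0%) and none of these 13, while 54 genes had a p under 0.05 before adjustment; limma-voom likewise called 0, with 48 before adjustment. Rbp4, Trf, Apom and Mttp, 4 members, were above 0 within both numbers, against 27.7% of all genes. Apoe, Soat2, Dab2 and Sparc, also 4, were below 0 within both, against 34% of all genes. The median of the 13 was 0.05 and that of all genes -0.01. Sparc was at 176 and 164 RPKM in siC and 147 and 138 RPKM in siTdg, with no overlap. Its log2 change was -0.25 (SE 0.16), and in the authors' deposited table it is -0.25 with an adjusted p of 0.0616.

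At 96 h limma again called 0 of 12190 genes (0%), with 11 at a p under 0.05 before adjustment; limma-voom called 0, with 10 before adjustment. Above 0 within both numbers were 5 members, Rbp4, Trf, Mttp, Soat2 and Lrp2, against 31.4% of all genes. Below 0 within both were 5, Apoe, Dab2, Hnf4a, Lama1 and Sparc, against 29.4% of all genes. Both shares were near those of all genes, and the median of the 13 was 0.02. Apoe was at 483 and 435 RPKM in siC and 428 and 414 RPKM in siTdg at 48 h, and at 309 and 356 RPKM in siC and 262 and 309 RPKM in siTdg at 96 h. It was lower in siTdg within each number in ESCs, the opposite sign to EBs. Lama1 at 96 h was at 27.2 and 7.15 RPKM in siC and 24.3 and 5.02 RPKM in siTdg, so for this gene replicate 1 was higher, as in EBs. Dab2 and Trf were also higher in replicate 1 of EBs, but in ESCs they were lower in replicate 1 at both times. Trf was at 2.79 and 4.53 RPKM in siC and 3.88 and 6.30 RPKM in siTdg at 48 h, with ratios of 0.41 and 0.44. Trf and Rbp4 were the 2 serum protein genes tested in ESCs, and both had ratios above 0 within both numbers at both times. Rbp4 was low there, at 0.211 to 0.820 RPKM on 8 to 32 reads per library. Its ratio of 0.06 within number 1 at 96 h came from 8 reads in siC and 9 in siTdg.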

How the data were processed

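RNA of 12 libraries in 6 groups of 2 was analysed, with 8 sorted libraries for levels; the other samples of the 47 were not analysed here, nor were 4 columns of RPKM at 0 h that match no sample. Per the labels' protocols, ribosomal RNA was depleted and a stranded total RNA kit was used. The submitters' processing notes name TopHat and DESeq2 with build mm9, without roles or versions. A counting tool and an annotation are not given in those notes. The authors deposited RPKM, in a table per comparison scaled separately, and tables of log2 fold changes, p-values and a signal column of mean normalised counts. The 96 h table of the authors' comparison holds the same columns, with decimal commas. The signs of the authors' 48 h and 96 h tables were turned to siTdg minus siC.

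RPKM and the deposited mean counts gave back whole reads for 100% of positive values within 0.01. Groups were compared with limma 3.58.1 (R 4.3.3) on log2(RPKM + 0.5), which understates changes of low genes, in genes whose mean reached 0.5 RPKM. 1 model held the 4 EB libraries and 1 the 8 ESC libraries, with two-sided tests, a trend and Benjamini-Hochberg adjustment over all genes at 0.05, and no term for replicate number. Ratios within a replicate number are descriptions. The fits were run on simulated data in which same-numbered libraries shared no deviation, so that run does not cover the gap between EB replicates. The members and the 10 marker lists were chosen with earlier results of these data known. Values per library are given for members with a mean of at least 10 RPKM in EBs, for those called, and for regulators with a mean of at least 1 RPKM. Of the marker lists, genes of at least 5 RPKM in EBs that define a list or had its largest or smallest change could be named. Apoc1, Spink1, Dppa5a and genes listed at 0 are named outside that rule. Alternatives were other pseudocounts, filters and scalings, limma-voom on recovered reads with trimmed-mean factors, a replicate block, removal of a length trend, and leaving out each library.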

Additional observations from a re-analysis of the deposited data

Results flagged for a closer look

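Apoe and Sparc are listed because their ratios were above 0 in EBs and below 0 in ESCs within both replicate numbers, although limma called neither gene and Sparc was near level in EB number 2 and in ESCs at 96 h. The log2 ratios of siTdg over siC for Apoe were 0.39 and 0.59 in EBs within numbers 1 and 2, -0.18 and -0.07 in ESCs at 48 h, and -0.24 and -0.21 in ESCs at 96 h. For Sparc they were 0.34 and 0.06 in EBs, -0.26 and -0.25 at 48 h, and -0.03 and -0.00 at 96 h. The fitted EB change exceeded that of ESCs by 0.61 at 48 h and 0.71 at 96 h for Apoe, and by 0.45 and 0.21 for Sparc. The difference between EBs and ESCs was not tested.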

How the results depend on the processing

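Limits: with 2 libraries a group and a wide gap between replicate numbers in EBs, limma without a replicate term called nothing, and Alb, Fga, Slc2a2 and Sox7 had under 10 reads in at least 1 EB library, so their ratios carry much counting error. Deviations of same-numbered libraries from their groups had correlations of 0.95 in EBs, 0.85 at 48 h and 0.93 at 96 h, but with 2 pairs the number is no proof of pairing. With the replicate block limma called 150 of 13300 genes in EBs. Of these 66 (0.496% of all) were higher, among them 7 of 29 members (Afp, Rbp4, Trf, Fgb, Fgg, Apoa1 and Apom), and 84 (0.632%) lower with 0 members. At 48 h it called 280, with Apom among those higher (0.747% of 12190) and Sparc among those lower (1.55%), and at 96 h 15 with 0 of 13 members. With limma-voom and a replicate block, chosen after seeing the data, it called 96 in EBs, where 0.406% were higher with 8 members (Afp, Rbp4, Trf, Fgb, Apoa1, Apob, Apom and Cubn) and 0.316% lower with 0. It called 812 at 48 h, Trf higher (2.09% of 12178) and Sparc lower (4.57%), and 264 at 96 h, 0 members higher (0.542%) and Apoe, Hnf4a and Lama1 lower (1.63%). The cause of these shifts beyond the block was not tested. Pdgfra turned to -0.035 with limma-voom and -0.016 with limma-voom and the block. A filter of a mean of at least 1 RPKM left a member median of -0.10 with 3 members above 0 at 48 h and 4 above 0 at 96 h, where fewer genes were tested; without a filter 4 genes were called at 96 h and 14 members were above 0. Removing a length trend, also chosen after seeing the data, moved the members' median difference between EB replicates from -0.03 to -0.26. The median log2 ratio of siC EBs over siC ESCs, 1.76 at 48 h and 1.52 at 96 h, was 2.71 and 2.72 with a pseudocount of 0.1, 1.19 at 48 h with a pseudocount of 1 (10 members at least 4-fold higher, from 16) and 1.90 at 48 h from recomputed RPKM. With 1 library left out, EB fits called 0 to 1 genes and gave a median of 0.11 to 0.52 with 19 to 22 members above 0. The members' median ranged from -0.0495 to 0.15 at 48 h, with 5 to 9 above 0, and from -0.10 to 0.11 at 96 h, with 6 to 8 above 0; no gene was called at either time. In EBs the ranges were -0.20 to 1.74 for Apoa1, -1.55 to 2.38 for Apoa2, -0.35 to 1.97 for Apom, -0.31 to 0.42 for Cited1, -0.21 to 0.74 for Cldn6, -1.05 to 1.05 for Dab2, -0.44 to 0.22 for Foxa1, -0.49 to 0.48 for Gata6, -1.84 to 2.23 for Lama1, -0.69 to 0.76 for Pdgfra, -0.52 to 2.16 for Rbp4, -0.49 to 0.89 for Sparc and -0.96 to 1.76 for Ttr. The planned quasi-likelihood count fits on recovered reads were not run, because the deposited values are RPKM.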
